A study of Mus musculus with 6 samples.

Results

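The genes described here encode the proteins that move ferrous iron and other divalent metals across cell and endosome membranes, together with the endosomal enzymes that reduce ferric iron. They were chosen by symbol and number 7 of the 26699 genes in the deposited files. They comprise the proton-coupled importers Slc11a2 (DMT1) and Slc11a1 (NRAMP1), the ZIP-family importers Slc39a14 and Slc39a8, the endolysosomal cation channel gene Mcoln1, and the ferric reductase genes Steap3 and Steap4. All 7 passed the filter on low counts and were among the 16843 genes tested.

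The conditional knockout cells (cKO) were primary bone marrow macrophages of genotype LysmCre-Slc11a2flox/flox, in which Cre recombinase is driven from the lysozyme M locus and so acts in the myeloid lineage. The control cells were macrophages of genotype Slc11a2flox/flox, with the same floxed alleles and no Cre in the label. Both genotypes came from mice aged 8 weeks; their strain and sex, and whether marrow was pooled, are not given in the labels. The marrow cells of both were expanded in 10 ng/mL M-CSF and then grown in 30 ng/mL M-CSF with 50 ng/mL RANKL for 48 hours. RANKL drives macrophages towards the osteoclast fate. Polyadenylated RNA was sequenced from 3 cKO and 3 control libraries. Because the labels give Cre to the cKO cells alone, effects of Cre and effects of Slc11a2 loss cannot be told apart. Nothing in the labels ties a library to a mouse or a separate culture. The p-values therefore rest on the spread among 3 libraries of a genotype, and that spread may be technical.

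Cells take up most iron bound to transferrin, and the ferric iron freed in the acid endosome must be reduced before a transporter can carry it to the cytosol. DMT1 is the best known carrier for that last step, while NRAMP1 sits on late endosomes and phagosomes of macrophages, and ZIP proteins import iron, zinc and manganese that are not bound to transferrin. Osteoclasts form from macrophage precursors and are rich in mitochondria and acid vesicles. The comparison addresses which of these routes are transcribed in the differentiating cells, and whether any of them is higher where Slc11a2 is lower.

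Slc11a2 has coding transcripts with different 3′ ends. The longest in GENCODE M21, Slc11a2-205, carries the iron-responsive element, a hairpin that iron regulatory proteins bind when iron is low. Its 30-base site is shown with those of the transferrin receptor gene Tfrc, the iron exporter gene Slc40a1 and the ferritin heavy chain gene Fth1. These are the textbook transcripts bound by the same proteins. The sequences are from GENCODE M21 on GRCm38, with the loop in capitals.
Slc11a2: gggagccatcagagcCAGTGTgtttctatg
Tfrc: gataattatcggaagCAGTGCcttccataa
Slc40a1: ttccaacttcagctaCAGTGTtagctaagt
Fth1: ggtttcctgcttcaaCAGTGCttgaacgga
The Slc11a2 site lies at chr15:100395155-100395184 on the minus strand, and its matched letters begin 38 bases into the 3′ UTR. The Tfrc site shown, the first match in its 3′ UTR, lies at chr16:32631216-32631245 on the plus strand. Any further matches in Tfrc are not listed here. The sites of Slc40a1 (chr1:45925467-45925496, minus strand) and Fth1 (chr19:9982729-9982758, plus strand) lie in 5′ UTRs. The letters searched on the transcript strand were CNNNNNCAGTGN, overlaps included. They are common: 28.8% of 43744 annotated 3′ UTRs hold them, and so do 0.727% of 30-base windows in 3′ UTRs. Slc11a2-205 has 3 matches in its 3′ UTR and Slc11a2-201, another of the 6 coding transcripts, has 2. Gene-level counts do not separate these transcripts.

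Slc11a2 fell in cKO cells, but most of its signal was still present. The gene (ENSMUSG00000023030, chromosome 15, 100387898 to 100424092, minus strand, mm10) had 3946, 4627 and 4660 reads in cKO replicates 1 to 3, against 6169, 6287 and 6787 reads in control replicates 1 to 3. As CPM, the read count scaled to library size by TMM factors, these were 78.3, 82.8 and 87.4 in cKO cells, against 119, 110 and 118 in control cells. Every cKO library lay below every control library, as was so for 11.4% of all tested genes. The log2 fold change, cKO over control, was -0.48 with a standard error of 0.06 and a 95% interval of -0.61 to -0.34 (edgeR quasi-likelihood adjusted p = 0.00219). That is a difference of -28.3%, and by unadjusted p the gene ranked 35 of 16843. The counts cover the whole gene and do not separate floxed exons from the rest, so they do not measure how completely the allele was deleted. In bulk RNA, fewer cells that carry a transcript and less of it per cell cannot be told apart.

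None of the other 6 genes was called in either direction, whereas 2.42% of all tested genes were called (1.36% higher and 1.06% lower in cKO cells). Slc11a2 was thus the only call among the 7, and it was the gene targeted by design. At an unadjusted p below 0.05 there were 2 further genes, Slc39a14 and Mcoln1, with 17.2% of all tested genes under that limit. DESeq2, which called 6.04% of the genes it gave an adjusted p, and limma-voom, which called 2.14%, also called Slc11a2 alone among the 7.

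**Figure D1:**
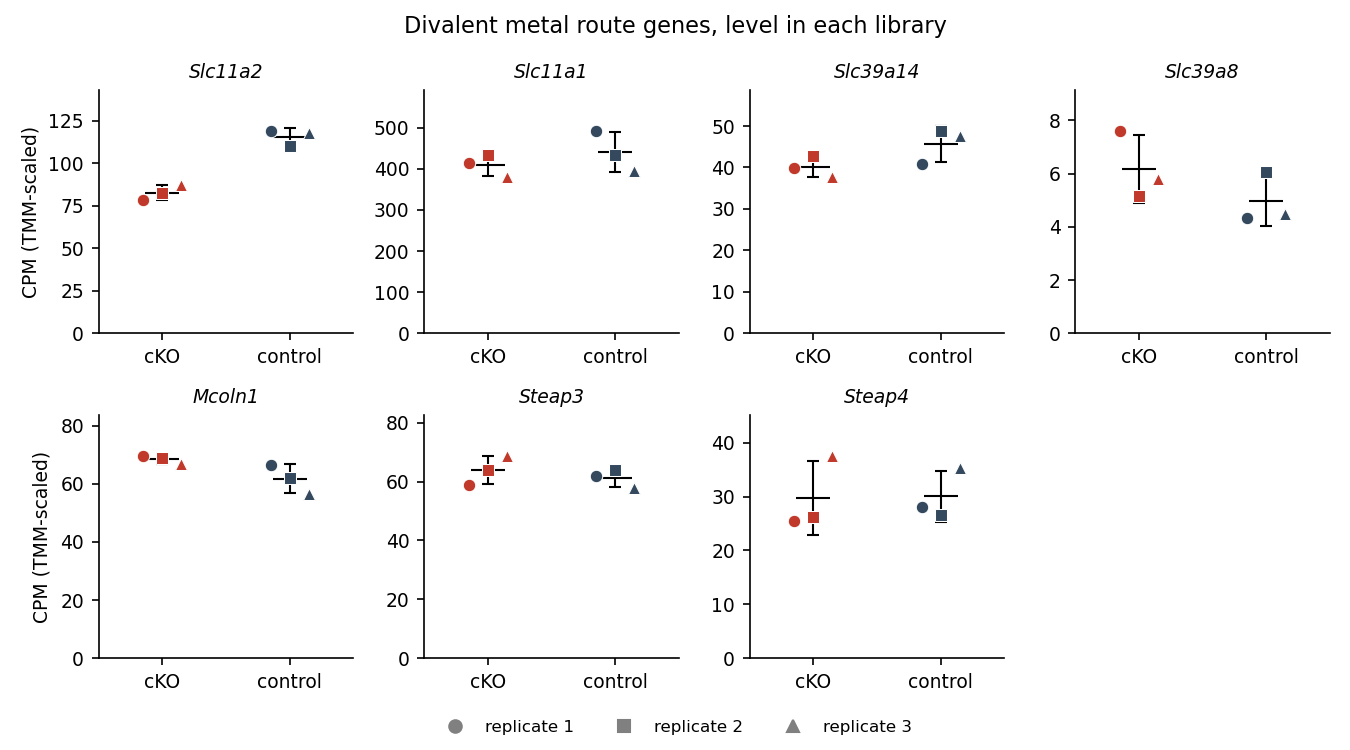
Each panel shows the CPM of a gene (vertical axis from 0) in the 3 cKO and the 3 control libraries. Symbols mark replicates, the horizontal bar the mean and the whiskers the SD. Slc11a2 lies between 78.3 and 87.4 CPM in cKO cells and between 110 and 119 CPM in control cells. Steap4 is highest in replicate 3 of both genotypes.

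Slc11a1, the closest relative of Slc11a2 among these genes, was abundant in both genotypes and did not pass the test. NRAMP1 moves divalent metal out of the phagosome and is known for resistance to intracellular microbes in mice. The gene (ENSMUSG00000026177, chromosome 1, 74375195 to 74386052, plus strand) stood at 415, 434 and 380 CPM in cKO replicates 1 to 3, against 492, 433 and 395 CPM in control replicates. The genotypes overlapped, and replicate 3 was the lowest library of each. Its log2 fold change was -0.10 ± 0.08 (SE; 95% interval -0.28 to 0.07, edgeR adjusted p = 0.573). On the linear scale the interval runs from -17.7% to 5.29%. A larger rise than that upper bound lies outside the interval.

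The ZIP importers were present at lower levels, and neither passed the test. Slc39a14, encoding ZIP14, which takes up iron that is not bound to transferrin as well as manganese and zinc, stood at 39.8, 42.7 and 37.8 CPM in cKO cells, against 40.8, 48.8 and 47.5 CPM in control cells. cKO replicate 2 lay above control replicate 1, so the genotypes overlapped. The log2 fold change was -0.19 ± 0.08 (SE; 95% interval -0.37 to -0.01, unadjusted p = 0.04, edgeR adjusted p = 0.263). Slc39a8, encoding ZIP8, a zinc, manganese and iron importer, had 383, 288 and 308 reads in cKO libraries, against 226, 347 and 258 reads in control libraries. It was the least abundant of the 7, at 6.18 ± 1.27 CPM in cKO cells and 4.96 ± 0.944 CPM in control cells (SD, n = 3 each). Its log2 fold change of 0.31 ± 0.19 (SE, edgeR adjusted p = 0.436) had the widest interval, from -6.78% to 65.8% on the linear scale. Slc39a14 lies on chromosome 14 (70303469 to 70351425, minus strand) and Slc39a8 on chromosome 3 (135825279 to 135888572, plus strand).

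Mcoln1 encodes TRPML1, a channel that lets calcium and ferrous iron out of late endosomes and lysosomes. The gene (ENSMUSG00000004567, chromosome 8, 3500457 to 3515232, plus strand) stood at 69.7, 68.8 and 66.8 CPM in cKO cells, against 66.5, 62.2 and 56.6 CPM in control cells. The cKO libraries all lay above the control libraries, though cKO replicate 3 and control replicate 1 were nearly level, and 11.1% of all tested genes were separated in that direction. The log2 fold change was 0.15 ± 0.07 (SE), a difference of 10.9% with an interval of 0.0727% to 22.9% (unadjusted p = 0.0486, edgeR adjusted p = 0.288). It did not pass the test. Without control replicate 3 its value was 0.09, and without control replicate 1 it was 0.21.

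The reductase genes showed no genotype difference that passed. Steap3, the reductase that works beside DMT1 in the endosomes of mouse red cell precursors, stood at 59.0, 64.0 and 68.8 CPM in cKO cells, against 61.9, 63.8 and 57.7 CPM in control cells. Its log2 fold change was 0.06 ± 0.07 (SE; 95% interval -0.09 to 0.22, edgeR adjusted p = 0.698). Steap4, a reductase of iron and copper known from adipose tissue and activated macrophages, stood at 25.4, 26.2 and 37.6 CPM in cKO cells, against 28.1, 26.6 and 35.4 CPM in control cells. Replicate 3 was the highest library in each genotype, and the log2 fold change was -0.02 ± 0.17 (SE; 95% interval -0.41 to 0.38, edgeR adjusted p = 0.977), a sign that turned in 4 of the alternatives. Steap3 lies on chromosome 1 (120190757 to 120271082, minus strand) and Steap4 on chromosome 5 (7960457 to 7982213, plus strand).

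The spread of Steap4 between replicates ran beside that of osteoclast genes. The summed level of 8 osteoclast markers (Acp5, Ctsk, Mmp9, Dcstamp, Ocstamp, Atp6v0d2, Calcr and Nfatc1) was 8806, 8256 and 11764 CPM in cKO replicates 1 to 3, against 12438, 11421 and 14820 CPM in control replicates 1 to 3. Replicate 3 was again the highest of each genotype. The log2 fold changes of the 8 markers, cKO over control, ran from -0.56 (Acp5) to -0.01 (Atp6v0d2), with 0 called in edgeR, and the summed ranges of the genotypes overlapped. For Slc11a1, replicate 3 was the lowest of each genotype. The part of these differences in the results above was not tested.

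**Figure D2:**
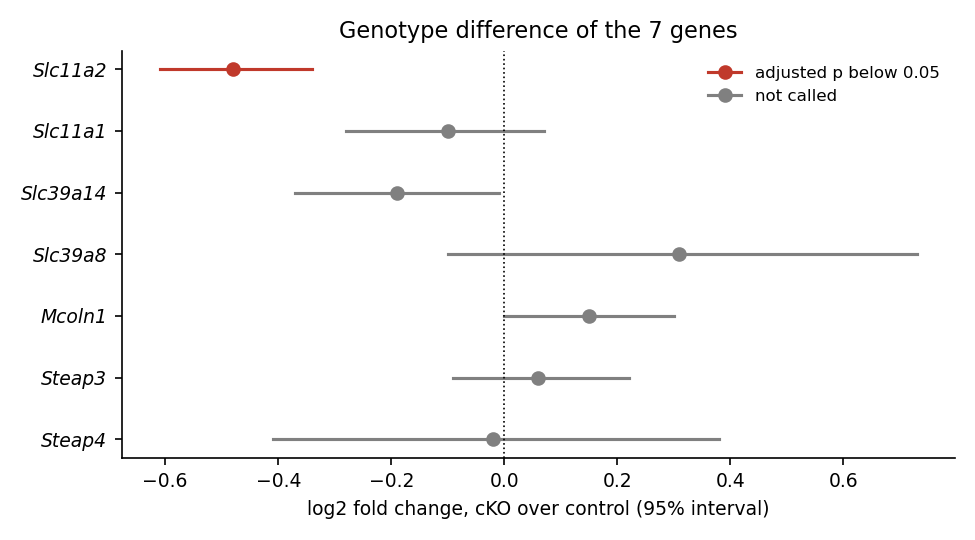
Points show the log2 fold change, cKO over control (horizontal axis), and lines its 95% interval, for the 7 genes down the page. Slc11a2 is at -0.48 with an interval of -0.61 to -0.34, and the other 6 genes are drawn in grey because they were not called.

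Because Slc11a2 fell and the other genes did not pass, the balance between routes was also read within each library, where no scaling between libraries enters. The ratio of Slc11a1 to Slc11a2, taken from the FPKM values the authors deposited (read counts scaled for gene length and library size), was 9.09, 8.99 and 7.46 in cKO replicates 1 to 3, against 7.12, 6.78 and 5.72 in control replicates. All 3 cKO ratios lay above all 3 control ratios. The ratio of Mcoln1 to Slc11a2 averaged 0.697 ± 0.0531 in cKO cells and 0.450 ± 0.0419 in control cells (SD, n = 3 each). That of Steap3 to Slc11a2 averaged 0.858 ± 0.0190 in cKO cells and 0.590 ± 0.0531 in control cells. Of the 6 ratios to Slc11a2, 5 were separated in this way, and the exception was Slc39a14, where 2 of the 3 cKO ratios lay above all control ratios. The 5 separated ratios had an exact two-sided permutation p of 0.1, the smallest that 3 libraries against 3 allow, and 0.12 adjusted over the 6 ratios. All 6 share Slc11a2 as denominator and so are not independent of its fall. A gene whose own level did not change can separate in the same way. The share of all tested genes that does so was not counted, so it is not known whether the separation is particular to these routes. Set against the FPKM sum of the 7 genes instead, the log2 difference of Slc11a1 was 0.008 (exact permutation p = 1.0), where it had been 0.38 against Slc11a2. Slc11a1 itself makes up most of that sum, so its ratio to the sum had little room to move and does not show that its share was unchanged. On that denominator the difference was, with exact permutation p-values, 0.079 for Steap4 (p = 0.5), 0.171 for Steap3 (p = 0.2), 0.26 for Mcoln1 (p = 0.1), 0.42 for Slc39a8 (p = 0.2) and -0.078 for Slc39a14 (p = 0.6).

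Between genes, levels were compared per length. By FPKM, Slc11a1 was the highest of the 7, at 96.2 ± 7.01 FPKM in cKO cells and 103 ± 11.0 FPKM in control cells (SD, n = 3 each), above 98.2% of all tested genes. Slc11a2 came next, at 10.6, 11.5 and 11.9 FPKM in cKO libraries, against 16.1, 14.9 and 16.2 FPKM in control libraries. Steap3 followed at 9.74 ± 0.805 FPKM in cKO cells and 9.23 ± 0.437 FPKM in control cells. Next were Steap4 (8.20 ± 1.87 in cKO, 8.23 ± 1.32 in control) and Mcoln1 (7.88 ± 0.180 in cKO, 7.05 ± 0.541 in control), both in FPKM. The lowest were Slc39a14 (3.30 ± 0.232 in cKO, 3.73 ± 0.360 in control) and Slc39a8 (0.697 ± 0.136 in cKO, 0.557 ± 0.108 in control). Within each genotype the neighbours in this order were apart except Steap3 and Steap4, and Steap4 and Mcoln1, whose libraries overlapped. The order was the same in both genotypes, and Slc39a8 lay above only 26.6% of tested genes.

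The length behind these FPKM values changes part of that order. The deposited counts and FPKM values together imply lengths in proportion to the union of all annotated exons of a gene. For Mcoln1 that union is 7555 bp in GENCODE M21, or 3.66 times its longest coding transcript of 2065 bp. For Slc11a2 the union is 6354 bp and the longest coding transcript 4415 bp, a factor of 1.44, and for Steap4 both are 3155 bp. Per kilobase of longest coding transcript, a scale added after the data were seen, Mcoln1 stood at 33.2 ± 0.716 CPM per kb in cKO cells and 29.9 ± 2.41 CPM per kb in control cells. It then took the second place, ahead of Slc11a2 at 18.8 ± 1.03 CPM per kb in cKO cells and 26.2 ± 1.15 CPM per kb in control cells. Slc11a1 stayed first and Slc39a8 last on both scales.

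**Figure D3:**
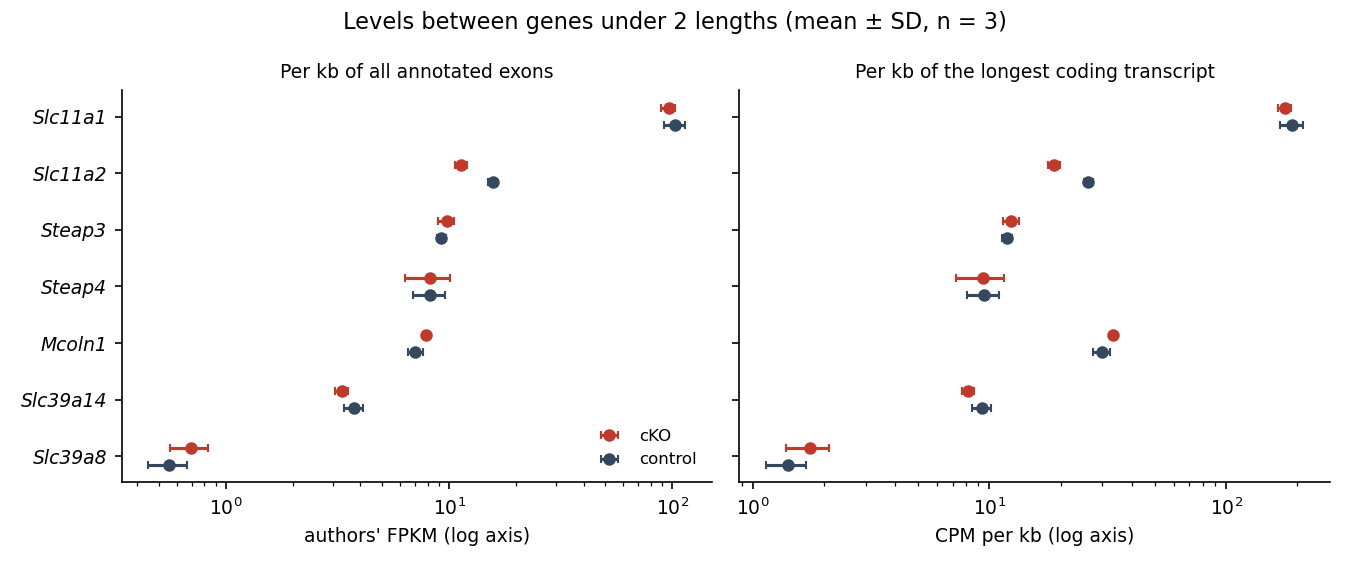
Mean level and SD (n = 3) of the 7 genes in cKO and control cells on log axes, in the authors' FPKM on the left and in CPM per kb of longest coding transcript on the right. Slc11a1 is highest on both, near 100 FPKM, and Mcoln1 moves from the fifth place to the second.

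Summed over the importer genes Slc11a2, Slc11a1, Slc39a14 and Slc39a8, the FPKM total was 112 ± 7.02 in cKO cells and 122 ± 10.7 in control cells (SD, n = 3 each). Slc11a1 made up 86.2% ± 1.04 of it in cKO cells and 83.6% ± 1.71 in control cells, and Slc11a2 made up 10.2% ± 1.04 in cKO cells and 12.9% ± 1.23 in control cells. Per longest coding transcript the share of Slc11a1 was 86.0% ± 0.954 in cKO cells and 83.7% ± 1.75 in control cells. These are shares of transcripts, and they say nothing of protein or of metal carried.

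The genes whose levels followed those of Slc11a2 and Slc11a1 most closely were sought among 9929 named genes that averaged 5 CPM or more, by Pearson's r of log2 CPM over the 6 libraries. For Slc11a2 they were Elof1, a transcription elongation factor (r = 0.996), Cox5a, a subunit of cytochrome c oxidase (r = 0.996), and Tmem35b (r = 0.995). Cox5a averaged 39.3 ± 1.53 CPM in cKO cells and 49.4 ± 1.96 CPM in control cells (SD, n = 3 each). Pearson's r does not measure the size of a change. The log2 fold changes, cKO over control, were -0.13 for Elof1 (edgeR adjusted p = 0.359), -0.33 for Cox5a (0.0284) and -0.36 for Tmem35b (0.0508), against -0.48 for Slc11a2. For Slc11a1 they were Scamp2, a secretory carrier membrane protein (r = 0.993), Ednrb, an endothelin receptor (r = 0.990), and Sec61g, a subunit of the translocon (r = 0.987). These are descriptions over 6 points that share depth and genotype. Between Slc11a2 and Slc11a1 themselves r was 0.36.

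Around these 7 genes, 8 lists of functionally related genes were read in the same fit, 66 of whose 74 genes were tested. Of these 66 genes, 4 rose and 1 fell, or 7.58% called, with 2.42% of all tested genes called. The lists were chosen with earlier results of these data known, so these shares do not show that the lists stand apart. Their median log2 fold change was -0.03, against 0.001 for all tested genes. No set test was made. The 5 calls depended on single libraries: none was left without cKO replicate 1, control replicate 2 or control replicate 3, where the whole comparison called 59, 166 and 116 genes, against 407 with all libraries.

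Other endolysosomal cation channel genes held 3 of the 4 rises. Of 6 tested, 3 rose and 0 fell, with a median log2 fold change of 0.17. Tpcn1, encoding the channel TPC1 of endosomes, stood at 200, 209 and 207 CPM in cKO cells, against 175, 166 and 160 CPM in control cells. It rose by 0.30 ± 0.06 on the log2 scale (SE, edgeR adjusted p = 0.0208). Tpcn2, encoding TPC2 of lysosomes, stood at 70.4, 73.0 and 63.3 CPM in cKO cells, against 55.1, 54.2 and 46.8 CPM in control cells. It rose by 0.40 ± 0.08 (SE, adjusted p = 0.0237). In both genes every cKO library was above every control library. Mcoln3, a relative of Mcoln1, had few reads, with 147, 180 and 136 in cKO libraries, against 81, 58 and 78 in control libraries, and rose by 1.15 ± 0.24 (SE, adjusted p = 0.0307). The highest adjusted p with a library left out was 0.103 for Tpcn1, 0.151 for Tpcn2 and 0.161 for Mcoln3. The remaining relative, Mcoln2, had the opposite sign, at 37.4 ± 1.64 CPM in cKO cells and 45.3 ± 3.75 CPM in control cells (-0.28 ± 0.08 SE, edgeR adjusted p = 0.0876), and was called lower by DESeq2 (adjusted p = 0.0409). The list's last members, Tmem175 (a lysosomal potassium and proton channel gene) and P2rx4 (an ATP-gated channel gene), were not called and are named only to complete it. The rows of Tpcn1 and Tpcn2 overlap other rows on the same strand, 2510016D11Rik with 263 to 436 reads and Smim38 with 5 to 39 reads, so the assignment of a small part of their reads is uncertain.

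**Figure D4:**
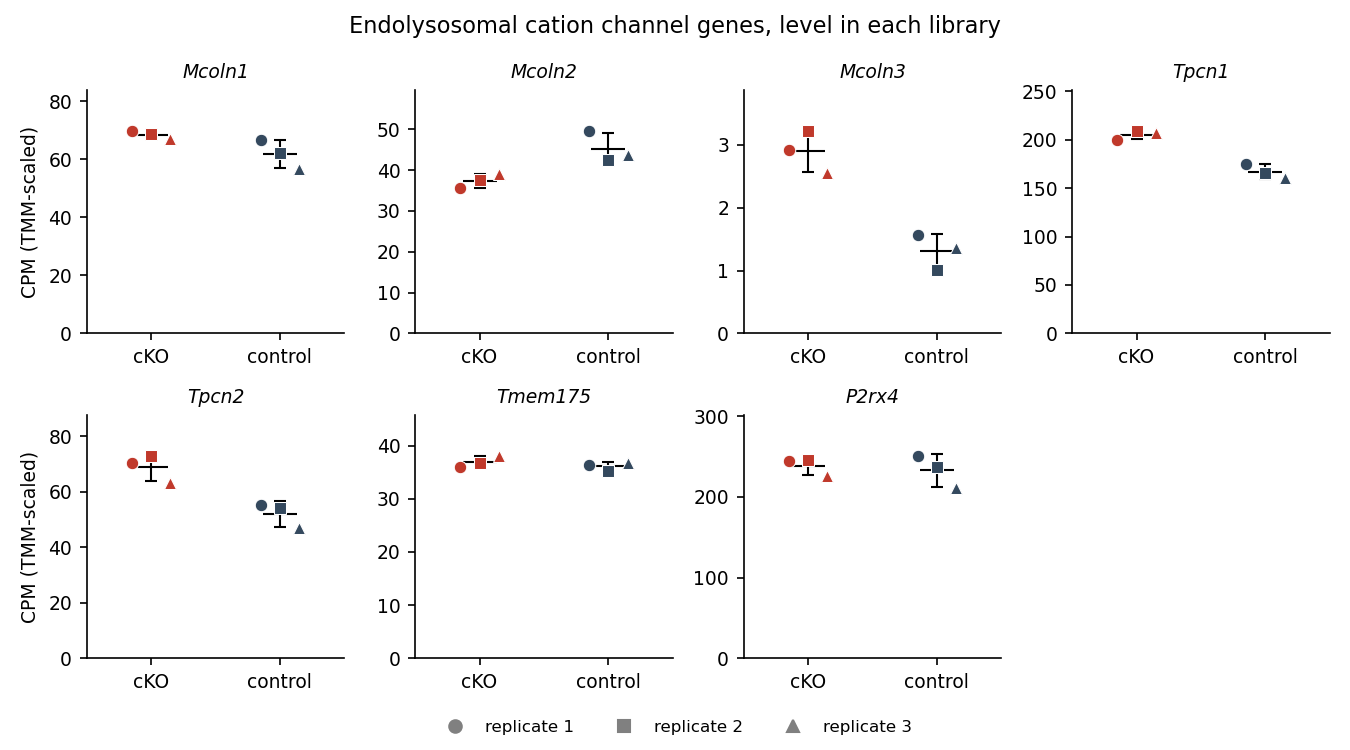
CPM (vertical axes from 0) of Mcoln1 and 6 other endolysosomal cation channel genes in the 3 cKO and 3 control libraries, with mean and SD. Tpcn1 lies between 200 and 209 CPM in cKO cells and between 160 and 175 CPM in control cells, while Mcoln2 is lower in all cKO libraries.

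Many lysosomal genes, Mcoln1 among them in human cells, answer to TFEB and related factors that bind around the letters CACGTG, so the promoters of these channel genes and of the 7 genes were searched. RefSeq promoters on GRCm38.p6, 250 bases before to 50 after the start, were at hand for 5 of the 7 genes and for 5 of the 6 other channels. The letters read the same on both strands, and 7.15% of the 32851 promoters hold them. Mcoln1 has 2 matches, Mcoln2 has 1, and Slc39a8 has 1 at the second of its annotated starts. The 60 bases around them are shown with the matches in capitals.
Mcoln1: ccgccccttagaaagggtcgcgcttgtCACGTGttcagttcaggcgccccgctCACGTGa
Slc39a8: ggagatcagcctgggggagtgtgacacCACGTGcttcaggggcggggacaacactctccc
Mcoln2: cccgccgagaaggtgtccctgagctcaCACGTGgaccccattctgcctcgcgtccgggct
All 3 are on the plus strand, at chr8:3500421-3500480 for Mcoln1, chr3:135825559-135825618 for Slc39a8 and chr3:146150075-146150134 for Mcoln2. The promoter of Tpcn2, which rose, holds no match in this window. That of Mcoln3, which also rose, holds none, but its window (chr3:146121541-146121840) lies inside the gene's row, which begins at 146117450. The start of that row was not searched. The Mcoln2 window with the match (chr3:146149924-146150223) likewise lies inside that gene's row, which begins at 146149833. So does the Slc39a8 window with the match (chr3:135825407-135825706), in a row that begins at 135825279. Tpcn1, the other channel gene that rose, had no promoter at hand. Of the genes with a match none was called in edgeR, Mcoln2 was called lower by DESeq2, and Mcoln1 and Mcoln2 had opposite signs. Whether TFEB or related factors act on any of these genes in these cells was not tested.

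Among the genes that control DMT1 protein, 1 of 8 was called. Ndfip1, an adaptor that brings ubiquitin ligases of the NEDD4 family to DMT1, stood at 102, 115 and 107 CPM in cKO cells, against 130, 129 and 129 CPM in control cells. It fell by 0.26 on the log2 scale, with a standard error of 0.06 (edgeR adjusted p = 0.0415), and every cKO library lay below every control library. Its relative Ndfip2 was at -0.24 ± 0.08 (SE, adjusted p = 0.172). The ligase genes Nedd4 (0.13 ± 0.11) and Wwp2 (-0.07 ± 0.06) did not pass. Leaving out 1 library at a time, the call of Ndfip1 was lost in 5 of 6 fits, with an adjusted p of up to 0.248.

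Other ferric reductases could stand in for the STEAP enzymes, and none of 7 tested was called. Cybrd1, the duodenal reductase, had between 4 and 12 reads in any library and was not tested. Cyb561a3, a lysosomal reductase, stood at 22.5 ± 0.505 CPM in cKO cells and 24.9 ± 1.49 CPM in control cells (SD, n = 3 each), with a log2 fold change of -0.14 ± 0.08 (SE, edgeR adjusted p = 0.401). Cyb561 was at -0.69 ± 0.21 (SE, adjusted p = 0.124), with all cKO libraries below all control libraries, Cyb561d2 at -0.30 ± 0.16 (0.376) and Steap2 at 0.25 ± 0.14 (0.371). The list had a median of -0.11.

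The genes around the transferrin cycle and the cytosolic iron pool held no call in edgeR, with 7 and 11 tested. Tfrc stood at 364, 353 and 446 CPM in cKO cells, against 415, 393 and 514 CPM in control cells, again highest in replicate 3 of each genotype. Its log2 fold change was -0.18 ± 0.12 (SE, edgeR adjusted p = 0.49). Slc40a1 was at -0.14 ± 0.08 (0.393) and Fth1 at -0.02 ± 0.09 (0.939), so that none of the other transcripts shown with an iron-responsive element passed the test. The elements shown for Slc40a1 and Fth1 lie in 5′ UTRs and the element shown for Tfrc in the 3′ UTR. These RNA levels are not a measure of iron regulatory protein activity, which was not tested. The sign of Fth1 turned in 3 of the alternatives. Vps35, a subunit of the retromer that recycles endosomal cargo, was at -0.23 ± 0.06 (0.062), and was called with DESeq2, with the replicate block and with the length trend removed. Trf, which encodes transferrin itself, was at 0.22 ± 0.11 (0.327), Snx3, a sorting nexin for the transferrin receptor, at -0.14 ± 0.06 (0.263), and the ferritin light chain gene Ftl1 at -0.25 ± 0.08 (0.133). DESeq2 called Ftl1 lower in cKO cells (adjusted p = 0.0177). Ncoa4, the receptor for ferritin breakdown, was at -0.09 ± 0.06 (0.48) and Aco1, an iron regulatory protein, at -0.11 ± 0.07 (0.432).

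The remaining ZIP genes (11 tested) and the genes for export of zinc and manganese (9 tested) held no call in edgeR. The lowest unadjusted p among the ZIP genes was that of Slc39a1, a zinc importer at the cell surface, with 214 ± 11.5 CPM in cKO cells and 251 ± 16.3 CPM in control cells (SD, n = 3 each; -0.23 ± 0.07 SE, edgeR adjusted p = 0.0997). Slc39a1 was called lower in cKO cells by DESeq2 (adjusted p = 0.0243), and so was Slc39a4 (adjusted p = 0.036). In edgeR Slc39a4 was at -0.49 ± 0.16 (0.16), Slc39a13 at -0.24 ± 0.11 (0.307) and Slc39a7 at -0.14 ± 0.07 (0.323). Among exporters, Slc30a5 was at -0.19 ± 0.06 (0.132), Tmem165, a manganese transporter of the Golgi, at 0.21 ± 0.07 (0.15), Slc30a4 at 0.17 ± 0.08 (0.309) and Atp2c1 at -0.12 ± 0.07 (0.374). Of 7 tested genes for uptake of heme, ferritin and siderophores, 1 rose. It was Lrp1, an endocytic receptor whose many ligands include heme bound to hemopexin, at 3253 ± 41.5 CPM in cKO cells and 2609 ± 101 CPM in control cells (0.32 ± 0.06 SE, adjusted p = 0.0211). Its call was lost with the length trend removed (0.257, adjusted p = 0.0715) and in 4 of the 6 fits without a library, with an adjusted p of up to 0.144. Slc22a17 (0.67 ± 0.25, 0.203), Lcn2 (0.65 ± 0.29, 0.289) and Slc48a1, a heme transporter gene (-0.10 ± 0.06, 0.401), did not pass.

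**Figure D5:**
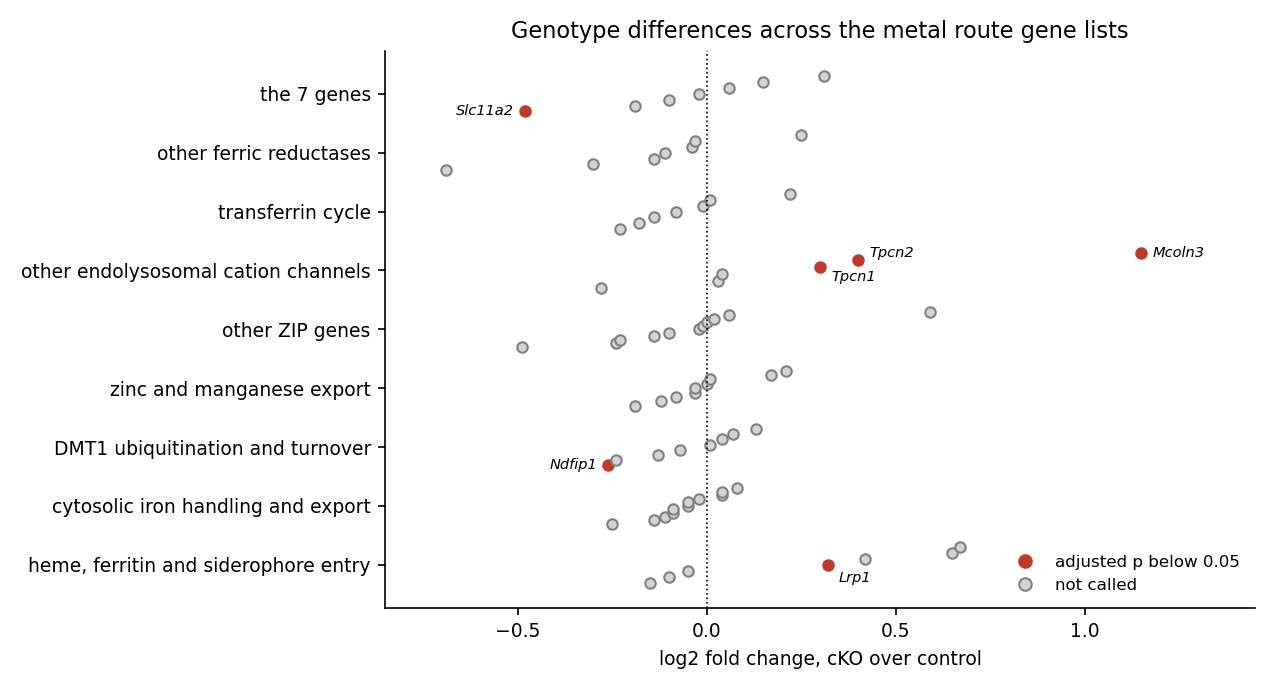
Each point is a tested gene, placed by its log2 fold change, cKO over control (horizontal axis), in the row of its list. Filled red points passed the test: Slc11a2 and Ndfip1 on the lower side, and Tpcn1, Tpcn2, Mcoln3 and Lrp1 on the higher side.

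Total counts ranged from 49720701 to 57797282 per library. Lyz2, the gene into which Cre is inserted, fell to 7783 ± 96.8 CPM in cKO cells, against 17105 ± 1580 CPM in control cells (SD, n = 3 each), which matches the labels of all 6 libraries. The other 7 macrophage markers summed to 6276 to 6787 CPM in cKO cells and 6488 to 7015 CPM in control cells, and all 8 osteoclast markers had reads in every library. Neutrophils also express Slc11a1. Of 9 neutrophil markers, 8 had reads, 7 were tested and 4 rose (Ngp, Ltf, S100a8 and S100a9), with sums of 261 to 295 CPM in cKO cells and 196 to 230 CPM in control cells, while Ly6g was not analysed here. Mmp8, at 201 to 247 CPM in cKO cells and 175 to 209 CPM in control cells, made up most of those sums. The rest had few reads and were not called. Camp averaged higher in cKO cells (0.506 CPM, against 0.169 CPM in control cells). Mpo (0.479 against 0.842 CPM) and Elane (0.0847 against 0.302 CPM, not tested) averaged lower. The 6 stromal markers, collagen genes mainly, summed to 3166 to 5094 CPM in cKO cells and 3365 to 3938 CPM in control cells, with 0 called. Sums for 8 erythroid, 6 B cell and 6 dendritic cell markers stayed between 0.634 and 6.59 CPM in all libraries. Of 6 T and NK cell markers Cd3e, Cd3d and Ncr1 were not analysed here, and the sum of 50.3 to 61.1 CPM came almost wholly from Cd4. The part of these other cells in the results above was not tested.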

How the data were processed

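Per the file headers, each library has raw counts per gene and the authors' FPKM. Cutadapt 1.9 and build mm10 are listed, per the submitters' processing notes. No label, note or file header names the aligner, the counter, its use of strand or the annotation (not given in the sources used here). Implied lengths were a median of 1.151 times the union of GENCODE M21 exons, and 78.5% of 16744 genes were within 1% of that ratio. Total counts were 49720701 to 57797282 per library, so 1 read was worth 0.0173 to 0.0201 CPM.

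The cKO and control libraries were set against each other in edgeR 4.0.16 under R 4.3.3, using filterByExpr (minimum count 10, minimum total 15), TMM scaling, and a robust quasi-likelihood F test with Benjamini-Hochberg adjustment over 16843 genes. A gene was called below 0.05. The SE is the size of the log2 fold change over the square root of F, and intervals are 95%. The scripts were tested on simulated data. Alternatives were DESeq2 1.42.0, limma-voom (limma 3.58.1), DESeq2 size factors, no filter, a length trend removed, a replicate block, each library left out, and other denominators. The members and lists were chosen with earlier results of these data known. All 7 members, Lyz2, Tfrc, Cybrd1, Ndfip1, Slc40a1 and Fth1 are named, with every called gene of each list and otherwise up to 4 genes by smallest p. Overlapping rows with few reads exist for Slc11a2 (Gm5475, opposite strand, 0 to 22 reads) and Slc39a8 (Gm43428 and Gm43429, 0 to 24 reads).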

Additional observations from a re-analysis of the deposited data

How the results depend on the processing

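Slc11a2 was the only called member, with 1 call among the 7 genes, in all 12 alternatives, with log2 fold changes of -0.52 to -0.44 and adjusted p-values of 6.62e-09 to 0.0369. Of the uncalled members, only Steap4 changed sign: 0.043 with the length trend removed, 0.086 and 0.068 without cKO replicate 1 or 2, and 0.121 without control replicate 3, in a leave-one-out range of -0.22 to 0.121. Fth1 changed sign too, at 0.03 with the length trend removed, 0.055 without cKO replicate 3 and 0.033 without control replicate 1 (range -0.08 to 0.055). The count of calls over all genes was 407, but 800 with DESeq2, 673 with the replicate block, and 59 to 624 with a library left out. In the related lists it was 5, but 10 with DESeq2 and 0 to 5 with a library left out. Among named genes, the call of Lrp1 was lost with the length trend removed. DESeq2 gained Vps35, Mcoln2, Slc39a1, Slc39a4 and Ftl1, and Vps35 was also gained with the replicate block, with the length trend removed and without cKO replicate 3. With a library left out, calls were lost 22 times. Deviations from the genotype means had r = -0.077, 0.05 and 0.262 between same-numbered libraries 1 to 3. Between differently numbered libraries r ran from -0.222 to 0.147, so replicate 3 gave the highest value. The labels do not say whether same-numbered libraries belong together, and the main fit did not take them as pairs. Set against the sum of the 7 genes in place of Slc11a2, all 6 ratios had smaller log2 differences: 0.008 for Slc11a1 and 0.079 to 0.42 for 4 others, while Slc39a14 changed sign (-0.078, exact permutation p = 0.6). Only the denominator differs there, so all 6 differences moved down by the same amount. Slc11a1 makes up most of that sum. Control levels per kb of longest coding transcript were 26.2 for Slc11a2, 190 for Slc11a1, 9.28 for Slc39a14, 1.41 for Slc39a8, 29.9 for Mcoln1 and 11.9 CPM per kb for Steap3. The cause of these changes was not tested, apart from the length that enters each level and the denominator that enters each ratio. Cybrd1, with 4 to 12 reads, was too low to test.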
